A study of Mus musculus with 12 samples.

Results

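The genes described here are the neutrophil-attracting CXC chemokines Cxcl1, Cxcl2, Cxcl3 and Cxcl5 and the receptors Cxcr1 and Cxcr2. They were taken by symbol from the table of nanostring values and make up 6 of its 248 inflammation-related genes, 4 ligands and 2 receptors, all of which were on the panel. The expression of each gene was compared between blood monocytes (MNCs, 6 samples) and Kupffer cells (KCs, macrophages that reside in the liver sinusoids, 6 samples) of Balb/C mice. No treatment is given for either cell type, and the labels state neither the age nor the sex of the animals. Each sample was sorted with magnetic beads against F4/80 and pooled from 5 mice by the labels, while the methods give 4 to 5 for this assay, and the input of each reaction was 100 ng of total RNA. The KCs came from perfused livers that were digested with collagenases and spun on a gradient, whereas the MNCs came from heparinised blood by a gradient without digestion, so the cell type and the way it was isolated cannot be told apart. No source used here says whether an MNC pool and a KC pool of the same number came from the same mice.

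CXC chemokines of this kind are small secreted proteins that carry a glutamate-leucine-arginine motif ahead of their paired cysteines and draw neutrophils out of the blood. They bind CXCR2, a G protein-coupled receptor that is abundant on neutrophils, and some also bind the related CXCR1. Macrophages and monocytes transcribe Cxcl1 and Cxcl2 quickly after signals from toll-like receptors, IL-1 or TNF, through NF-kB. In the liver, such chemokines are known for bringing neutrophils to injured or infected sinusoids.

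Values are normalized counts of reporter molecules as deposited, and a gene below the highest negative control probe of its lane is listed at the count of that probe, referred to here as background. The normalized counts summed to 175342 to 189849 per MNC sample and to 171375 to 232593 per KC sample. Above the background, all values of a lane were whole multiples of 1 lane factor, and dividing by it gave 158730 to 339100 counted molecules per MNC sample and 80944 to 140029 per KC sample. The background was listed without that factor, at 5 to 27 in MNCs and 7 to 14 in KCs. In MNC sample 2 it was the lowest, at 5, and this sample decides several of the low values below. The 2 markers of KCs on the panel, the scavenger receptor gene Cd163 and the mannose receptor gene Mrc1, both rose in KCs, although their summed count in KC sample 1, 373, lay at the lower end of the MNC range of 372 to 549. Of the 2 monocyte markers measured, Itgb2 fell in KCs while Ccr2 had 1553 ± 201 in MNCs and 1449 ± 458 in KCs (SD, n = 6 each; log2 fold change -0.16, adjusted p = 0.508, limma). All 9 hepatocyte genes measured rose, to sums of 4205 to 14595 in KCs. Each was at the background in 5 or 6 of 6 MNC samples. Their MNC sums, 49.6 to 243, are therefore nearly all listed background and not a measured level. Of the 8 measured genes of T and NK cells 6 rose, from sums of 2950 to 5956 to sums of 8643 to 34793. These samples were bulk RNA, in which fewer cells of a type and less RNA per cell cannot be told apart.

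Both ligands that were measured in all samples, Cxcl1 and Cxcl2, were lower in KCs by more than an order of magnitude, and every KC sample lay below every MNC sample. The receptor Cxcr2 overlapped between the cell types in normalized counts, with no difference past the threshold. Its counted molecules before scaling were 80 to 241 in MNCs and 29 to 80 in KCs. Cxcl3, Cxcl5 and Cxcr1 stood at the background in nearly every sample. Over the whole panel, 21.4% of genes were called lower and 35.1% higher in KCs at an adjusted p of 0.05, and 15.7% had every KC sample below every MNC sample. Of the 6 members, 3 were called lower and 0 higher, but the third of those calls, that of Cxcr1, rests on values of which 11 of 12 are background, as described with them.

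**Figure D1:**
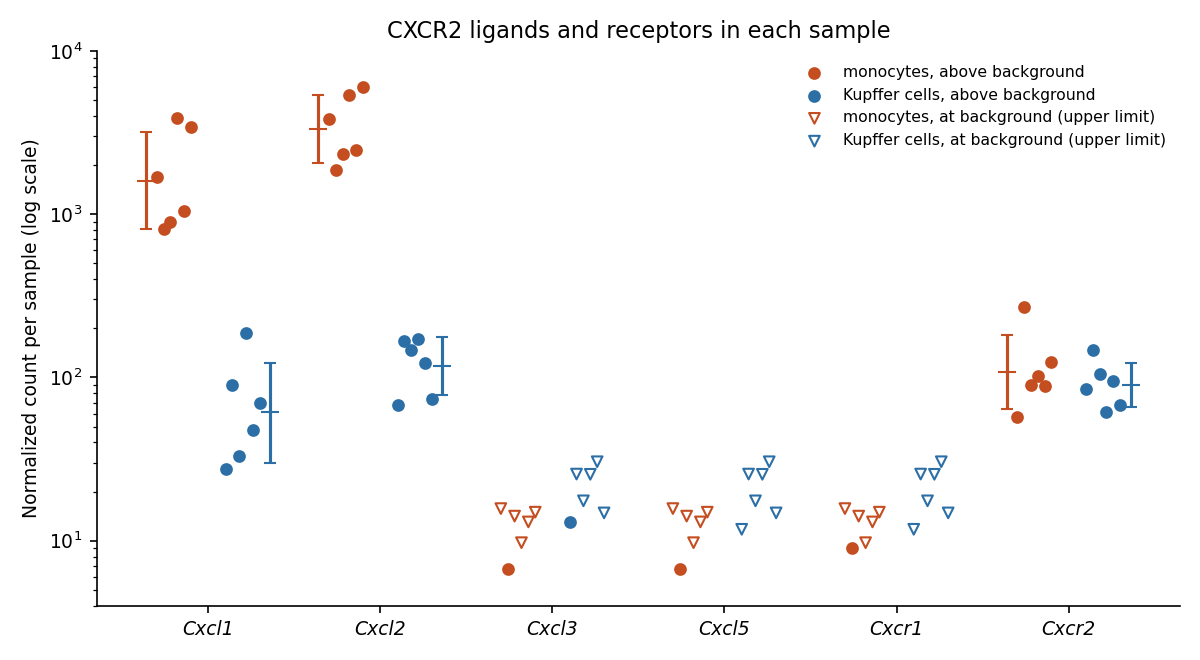
Normalized counts of the 6 genes in each sample (log scale); each point is 1 sample, filled where the gene was above the background, and an open triangle marks a sample at the background, drawn at the background multiplied by the lane factor as an upper limit. Bars, drawn for the genes above the background in all 12 samples, give the geometric mean with 1 SD on the log2 scale. Cxcl1 and Cxcl2 do not overlap between the cell types, Cxcr2 does, and the other 3 genes are almost wholly limits.

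The ligand Cxcl2, also known as MIP-2, had 3796, 1873, 2347, 5353, 2452 and 5976 normalized counts in MNC samples 1 to 6. In KC samples 1 to 6 it had 67.9, 166, 146, 172, 122 and 74.0. The lowest MNC sample was thus about an order of magnitude above the highest KC sample. Its mean was 3633 ± 1710 in MNCs and 125 ± 45.3 in KCs (SD, n = 6 each), and the fit gave a 28.0-fold lower level in KCs (95% interval 17.0 to 46.2; log2 fold change -4.81, SE 0.33, adjusted p = 3.66e-08, limma). This was the 4th largest fall on the panel. The values rested on 1664 to 10795 counted molecules per MNC sample and 35 to 91 per KC sample. Counting error alone therefore spans 50.7 to 89.0 normalized counts in KC sample 1 and 92.0 to 158 in KC sample 5 (exact 95% Poisson intervals, which cover counting error only).

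The ligand Cxcl1, also known as KC or GRO-alpha, had 1676, 809, 900, 3895, 1047 and 3412 normalized counts in MNC samples 1 to 6. In KC samples 1 to 6 it had 27.4, 89.5, 33.1, 187, 47.8 and 69.8. The groups did not overlap, but both were wide, the highest sample being 4.81 times the lowest in MNCs and 6.82 times the lowest in KCs. Its mean was 1956 ± 1358 in MNCs and 75.8 ± 59.2 in KCs (SD, n = 6 each), a 25.9-fold lower level in KCs (95% interval 12.1 to 55.5; log2 fold change -4.69, SE 0.51, adjusted p = 2.91e-06, limma), the 5th largest fall on the panel. Among the 160 genes above the background in all 12 samples, Cxcl1 had the 3rd largest SD of log2 values between MNC samples, 0.99, and the 2nd largest between KC samples, 1.00, where the medians over these genes were 0.22 and 0.35. Cxcl2 was 6th in MNCs, with an SD of 0.69, and 25th in KCs, with an SD of 0.58. KC sample 4, the highest in Cxcl1, had 88 counted molecules and a counting interval of 150 to 230 normalized counts, above the intervals of all other KC samples, and KC sample 1 had 21 counted molecules and an interval of 17.0 to 41.9. Other KC samples lay near the background, with 17 molecules against a background of 9 in KC sample 3 and 22 against 14 in KC sample 5. The part of counting error and background in the spread of Cxcl1 between KC samples was not tested.

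**Figure D2:**
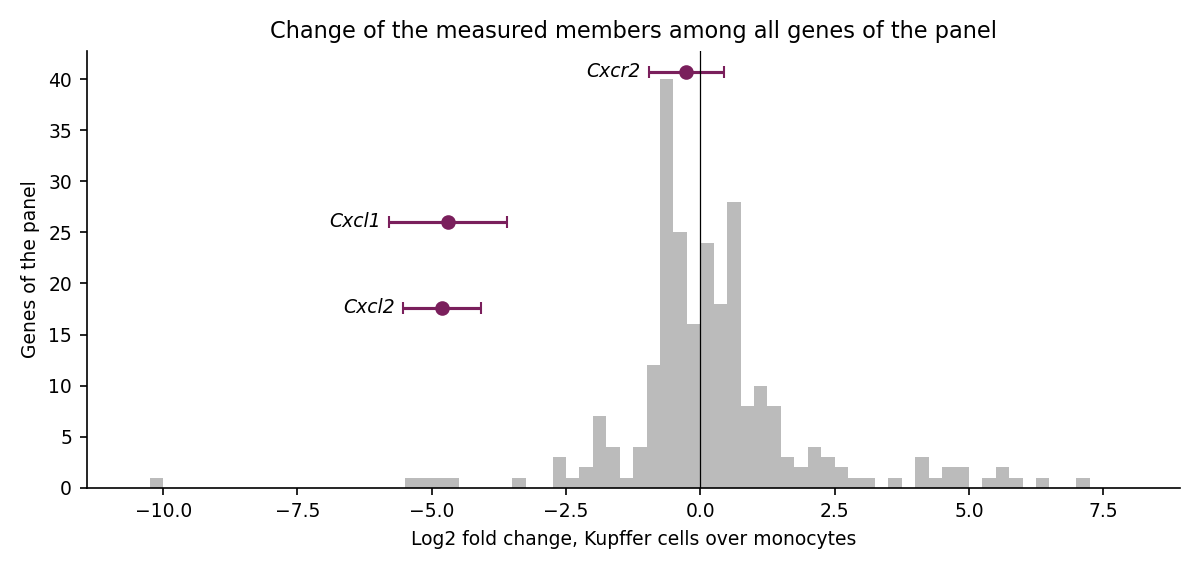
Log2 fold change, KCs over MNCs, of the 248 genes of the panel (grey, number of genes per bin) with the 3 members above the background in all samples marked by their estimate and 95% interval; the height of the marks carries no value. Cxcl1 and Cxcl2, at -4.69 and -4.81, lie in the lower tail, and the interval of Cxcr2, -0.96 to 0.43, spans 0.

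The genes of the 4 ligands lie near each other on mouse chromosome 5 in the order Cxcl5, Ppbp, Pf4, Cxcl3, Cxcl15, Cxcl1 and Cxcl2, where Ppbp, Pf4 and Cxcl15 are named for position only. The 130 bases ahead of the annotated start of the 3 ligand genes held by the RefSeq promoter table (GRCm38.p6) are shown because the genes that moved together and the one at the background carry the same pair of runs. They are chr5:90891115-90891244 for Cxcl1, chr5:90903769-90903898 for Cxcl2 and chr5:90785971-90786100 for Cxcl3, all on the plus strand, written 5′ to 3′ in lower case. The capitals mark GGGAATTTCCC, letters of the kind bound by NF-kB, and ATAAAAGG, letters of the TATA box kind, which are the 2 runs of 8 or more bases that all 3 genes share within 250 bases ahead of the start.
Cxcl1: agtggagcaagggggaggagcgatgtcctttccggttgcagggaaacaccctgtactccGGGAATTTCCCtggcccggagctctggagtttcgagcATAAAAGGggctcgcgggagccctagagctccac
Cxcl2: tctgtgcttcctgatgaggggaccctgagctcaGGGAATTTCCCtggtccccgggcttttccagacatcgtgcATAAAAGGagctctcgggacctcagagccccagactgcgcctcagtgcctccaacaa
Cxcl3: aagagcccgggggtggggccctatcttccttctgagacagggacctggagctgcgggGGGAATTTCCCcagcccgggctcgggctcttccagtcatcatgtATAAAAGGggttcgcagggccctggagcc
The first base of GGGAATTTCCC lay 71 bases before the start in Cxcl1, 97 in Cxcl2 and 73 in Cxcl3, and that of ATAAAAGG lay 34, 57 and 29 bases before it. Both runs were defined by these sequences and were then searched on both strands in the 250 bases ahead of each of 27025 genes. GGGAATTTCCC was found in 14 of them (0.0518%), ATAAAAGG in 494 (1.83%), and both together in 3 (0.0111%), which are Cxcl1, Cxcl2 and Cxcl3 themselves. Among the 181 panel genes with an entry in that table, GGGAATTTCCC occurred in these 3 ligand genes only. Only these exact letters were searched for, so other letters of the kind bound by NF-kB were not counted in any gene. Aligned over the 130 bases, Cxcl1 and Cxcl3 had 63.4% identical bases, Cxcl1 and Cxcl2 55.1%, and Cxcl2 and Cxcl3 53.5%, against 45.1% to 51.0% for pairs that include a receptor gene. A match of letters does not show that a factor was bound, and the gene nearest to Cxcl1 in this window, Cxcl3, was the one at the background in nearly every sample.

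Cxcl3, a close paralogue of Cxcl2, was at the background in 5 of 6 MNC samples and 5 of 6 KC samples. The exceptions were MNC sample 2, with 6.75 normalized counts, which are 6 molecules against a background of 5, and KC sample 1, with 13.1, which are 10 molecules against a background of 9. Elsewhere it can only be limited, to at most 9.72 to 15.7 normalized counts in the MNC samples and 14.8 to 30.4 in the KC samples when the background is multiplied by the lane factor. Signal shared between the probes of these related genes was not tested, since the probe sequences were not used here. In MNC sample 6, which had 10795 molecules of Cxcl2, the Cxcl3 probe counted no more than the background of 27.

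Cxcl5, known in the mouse as LIX and made mainly by epithelial and stromal cells, was above the background in 1 sample only, again MNC sample 2, at 6.75 normalized counts. In the KCs it was at the background in 6 of 6 samples, which allows at most 11.7 to 30.4 normalized counts. On the listed values neither Cxcl3 nor Cxcl5 passed the threshold (adjusted p = 0.0799 and 0.0511, limma), and since 10 of 12 and 11 of 12 of these values are the background of the lane, no fold is given for either.

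The receptor Cxcr2 had 57.2, 271, 90.2, 102, 88.8 and 124 normalized counts in MNC samples 1 to 6. In KC samples 1 to 6 it had 84.8, 146, 105, 61.6, 95.6 and 67.6. The groups overlapped over nearly their whole range, and MNC sample 2 stood alone at the top, at 271 against 124 in the next MNC sample. The mean was 122 ± 76.2 in MNCs and 93.5 ± 30.6 in KCs (SD, n = 6 each; log2 fold change -0.26, SE 0.32, 95% interval -0.96 to 0.43, adjusted p = 0.475, limma). An exact permutation test of the 12 samples gave a two-sided p of 0.504. Rescaling each sample to its median gene gave a log2 fold change of -0.52 (adjusted p = 0.148, limma), and quantile normalization -0.82 (adjusted p = 0.0684, limma). The 95% interval of the main fit leaves room for a level up to 1.95-fold lower in KCs, so equal expression was not shown. Without MNC sample 2 the log2 fold change was close to 0 (-4.51e-06, adjusted p = 1.00, limma).

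Cxcr1, the other receptor, whose gene is the direct neighbour of Cxcr2 on chromosome 1, was at the background in 5 of 6 MNC samples and in 6 of 6 KC samples. Its single value above it was 9.01 normalized counts in MNC sample 2, which are 8 molecules. On the listed values limma called Cxcr1 lower in KCs (adjusted p = 0.0183), but 11 of the 12 values compared are the lanes' own backgrounds, and the background had a median of 21.5 in MNCs and 10.5 in KCs. With these multiplied by the lane factor, Cxcr1, Cxcl3 and Cxcl5 were all called higher instead (log2 differences of 0.63, 0.71 and 0.69). A common floor of 30.4 lies above every listed value of these genes, so with it they cannot differ and it tests nothing for them. No direction is therefore given for any of the 3. The 130 bases ahead of Cxcr1 and Cxcr2 in the same RefSeq table hold neither of the runs marked in the ligand genes.

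Neutrophils, the cells known for Cxcr2, could not be followed by most of their markers. Of 13 neutrophil markers, 3 were measured, Cxcr1, Cxcr2 and the gelatinase gene Mmp9, with sums of 207 to 456 in MNCs and 154 to 310 in KCs. Mmp9 had 146 ± 48.8 in MNCs and 97.7 ± 30.3 in KCs (SD, n = 6 each; log2 fold change -0.57, adjusted p = 0.0629, limma). Cxcr1 was at the background in 11 of 12 samples, and the granule protein genes that define neutrophils were not analysed here. Whether neutrophils in the pools contributed to the level of Cxcr2 was not tested.

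Within the MNCs, Cxcl1 and Cxcl2 ordered the samples in nearly the same way, with samples 4, 6 and 1 high and 2, 3 and 5 low in both. Their log2 values correlated with r = 0.979 over the 6 MNC samples (exact permutation p = 0.00417, adjusted p = 0.025 over 6 relations) and rho = 0.943 (exact p = 0.0167, adjusted p = 0.10). Without samples 4 and 6, the farthest from the median of Cxcl1, r was 0.983. Within the KCs, r was 0.554 (exact p = 0.263, adjusted p = 0.653) and rho 0.771 (exact p = 0.103, adjusted p = 0.308), and without samples 1 and 4 r was -0.12. The difference between the cell types was not tested. In KCs the ligands rest on few counted molecules, 17 to 88 for Cxcl1 and 35 to 91 for Cxcl2, so counting error enters this r. Cxcr2 had no correlation past the threshold with either ligand, with r of -0.24 and -0.35 in MNCs and -0.31 and 0.35 in KCs for Cxcl1 and Cxcl2 (exact adjusted p = 0.653 to 0.689). These values rest on few samples: without the 2 samples farthest from the median of the ligand, r was -0.79 and -0.88 in MNCs and 0.18 and -0.11 in KCs.

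**Figure D3:**
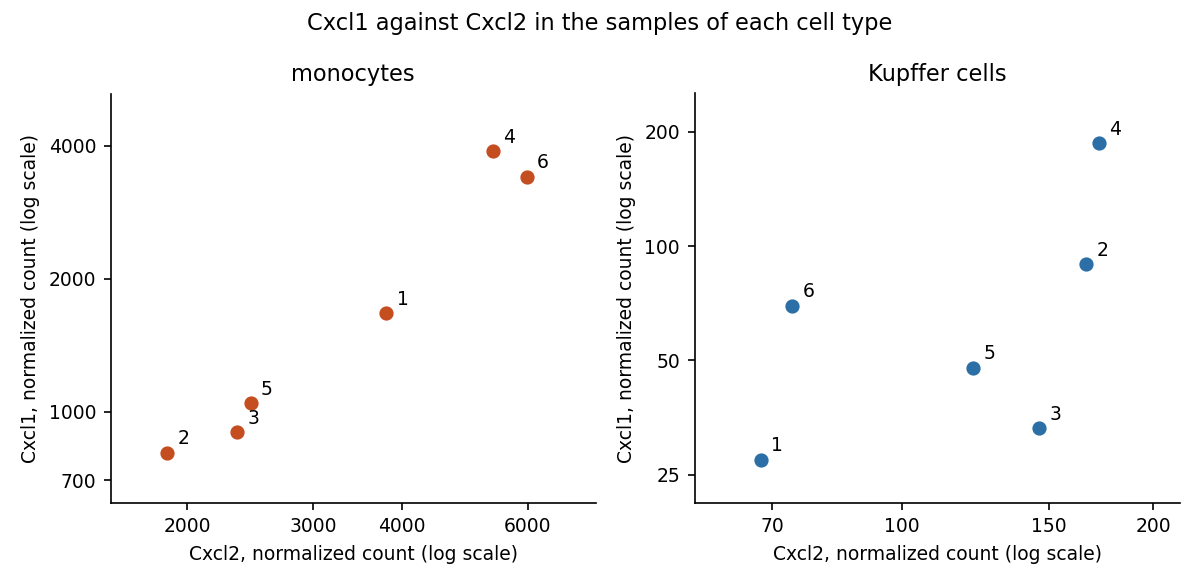
Normalized counts of Cxcl1 against Cxcl2 (both axes log scale), 1 point per sample with its number, in MNCs (left) and KCs (right), each panel with axes of its own. The MNC samples lie along a line (r = 0.979), while the KC samples scatter more (r = 0.554). Among the KCs, the ratio of Cxcl1 to Cxcl2 is highest in samples 4 and 6 and lowest in sample 3.

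The log2 ratio of Cxcl1 to Cxcl2 within a sample, which the scaling of the lane leaves nearly untouched, was -1.04 ± 0.34 in MNCs and -0.93 ± 0.84 in KCs (SD, n = 6 each). Its size depends on how well each probe captures its target, so only its difference between the cell types is of use. That difference was 0.12 (exact permutation p = 0.766), smaller than the spread within either cell type, and the sign turned without KC sample 4 (-0.093) or KC sample 6 (-0.052). The lowest ratio, -2.11, was that of KC sample 3, where Cxcl1 had 17 counted molecules, and the highest, 0.12, that of KC sample 4.

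Marker genes of cell types were set beside the ligands, sample by sample. MNC samples 1, 4 and 6, the highest in Cxcl1 and Cxcl2, had the lowest sums of the 8 T and NK cell genes, 4650, 3778 and 2950, against 5796, 5956 and 5880 in samples 2, 3 and 5. By the mean log2 value of these 8 genes the same samples were lowest, at 6.89, 6.60 and 6.57 against 7.02 to 7.17. They also had the highest sums of the 2 monocyte genes, 7619, 7630 and 9032, against 6265 to 6528 in the others. Of the eosinophil genes, 2 of 6 were measured, and their sum, nearly all of it Alox15, was 7121, 8579 and 8546 in these samples against 5400 to 6129 in the others. The other eosinophil gene, Ccr3, was at the background in 4 of 6 MNC samples. It rose in KCs (log2 fold change 2.48, adjusted p = 7.34e-07, limma), where Alox15 fell (-5.00, adjusted p = 9.62e-10, limma). In the KCs, sample 1 had the lowest Cxcl1 and Cxcl2 and the lowest hepatocyte sum, 4205. Its T and NK cell sum, 34793, was the highest of the KCs and that of KC sample 4, the highest in both ligands, the lowest, 8643, but these sums are carried by the chemokine gene Ccl5, which ranged from 6978 to 33369 in KCs. By the mean log2 value of the 8 genes that order was not seen, with 8.13 in KC sample 1 and 8.04 in KC sample 4 within a range of 7.91 to 8.31. The eosinophil sum of the KCs was lowest, 172, in sample 4, against 317 to 499 in the other KC samples. The part of any of these cell types in the spread of Cxcl1 and Cxcl2 was not tested.

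**Figure D4:**
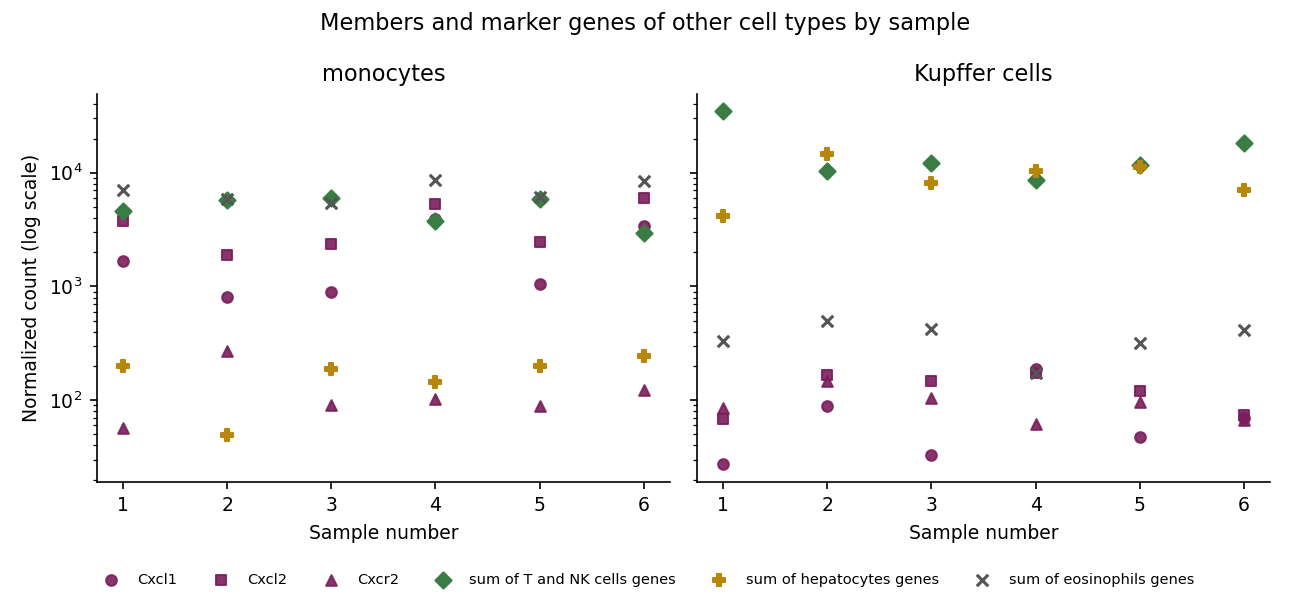
Normalized counts (log scale) of Cxcl1, Cxcl2 and Cxcr2 and summed normalized counts of the T and NK cell, hepatocyte and eosinophil marker genes, by sample, in MNCs (left) and KCs (right). The hepatocyte sums of the MNCs are nearly all listed background values. MNC samples 1, 4 and 6 combine the highest ligand counts with the lowest T and NK cell sums, and KC sample 1 the lowest ligand counts with the highest such sum, which is nearly all Ccl5 and is not the highest by the mean log2 value of the 8 genes.

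Early response genes, whose transcripts can build up while cells are isolated, were set beside the ligands. Of the 12 listed, 10 were measured, of which 5 were called higher and 2 lower in KCs, beside 35.1% and 21.4% of all genes. Their sum, of which Fos is a large share, was 10309 to 13293 in MNCs and 17169 to 31767 in KCs. Sample 4, the highest in Cxcl1 in either cell type, had the highest of these sums among MNCs and the lowest among KCs. The part of isolation in the level of Cxcl1 and Cxcl2 was not tested.

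The genes most like each member were sought among the other 159 genes above the background in all 12 samples, by Pearson's r of log2 values, as a description. Over the 12 samples, where the step between the cell types sets most of r, Cxcl1 was most like Cebpb (0.987), Ccl24 (0.985), Ptgs1 (0.975), Cxcl2 (0.973) and Tlr2 (0.969). Cxcl2 was most like Itgb2 (0.993), C3ar1 (0.990), Tlr2 (0.982), Tlr8 (0.980) and Ccr1 (0.978), with Cxcl1 10th. After the mean of its cell type was taken from each value, the genes nearest to the ligands were different ones in part. Cxcl1 then went with Il1a (0.955), Arg1 (0.910), Cebpb (0.902), Ccl24 (0.880) and C4a (0.855), with Cxcl2 11th (0.779). Cxcl2 went with Tlr2 (0.938), Tlr8 (0.898), Tyrobp (0.896), Nlrp3 (0.893) and Itgb2 (0.886), with Cxcl1 19th. No gene was close to Cxcr2, for which the highest r was that of Tlr6, 0.657 over the 12 samples and 0.709 after the means were taken out. The points share lanes, scaling and cell mixture, so these values carry no p.

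Among 19 genes that sense or relay the signals known to induce the ligands, 5 were called lower and 5 higher in KCs. Over all 248 genes, 21.4% were called lower and 35.1% higher. The median log2 change of the 19 was -0.12 against 0.05 over all genes. The largest fall was that of Tlr2, the receptor of bacterial lipoproteins, with 299 ± 84.4 in MNCs and 82.7 ± 23.0 in KCs (log2 fold change -1.84, adjusted p = 1.18e-05, limma). Cebpb, a transcription factor of myeloid cells that acts on inflammatory genes, fell from 2985 ± 534 to 1087 ± 323 (log2 fold change -1.48, adjusted p = 1.51e-05, limma). Tlr4, the receptor of lipopolysaccharide, fell from 220 ± 30.6 to 112 ± 26.6 (log2 fold change -0.995, adjusted p = 0.000214, limma). Tnfaip3, an NF-kB target that damps the pathway, had a smaller fall (-0.42, adjusted p = 0.0276, limma), and the remaining fall was that of Ly96.

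Of the inducing cytokines, Tnf rose from 49.9 ± 13.5 in MNCs to 119 ± 23.2 in KCs, with no overlap (log2 fold change 1.26, adjusted p = 0.000118, limma), the opposite direction to Cxcl1 and Cxcl2. Il1a, which had the pattern nearest to that of Cxcl1 within the cell types, had a log2 fold change of -0.99 that missed the threshold (adjusted p = 0.0904, limma), and Il1b one of -0.65 (adjusted p = 0.120, limma). The NF-kB subunit genes Nfkb1 and Rela changed by -0.12 and 0.22 (adjusted p = 0.462 and 0.131, limma). Il1r1, the IL-1 receptor and the largest rise of these genes, was at 16.4 to 30.4 in MNCs, where 4 of 6 samples were at the background, and at 136 to 1152 in KCs (adjusted p = 9.94e-07, limma). After rescaling each sample to its median gene, or after quantile normalization, 10 of the 19 were called lower, so only the counts of this group, not the directions of Cxcl1 and Cxcl2, depend on the scaling.

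**Figure D5:**
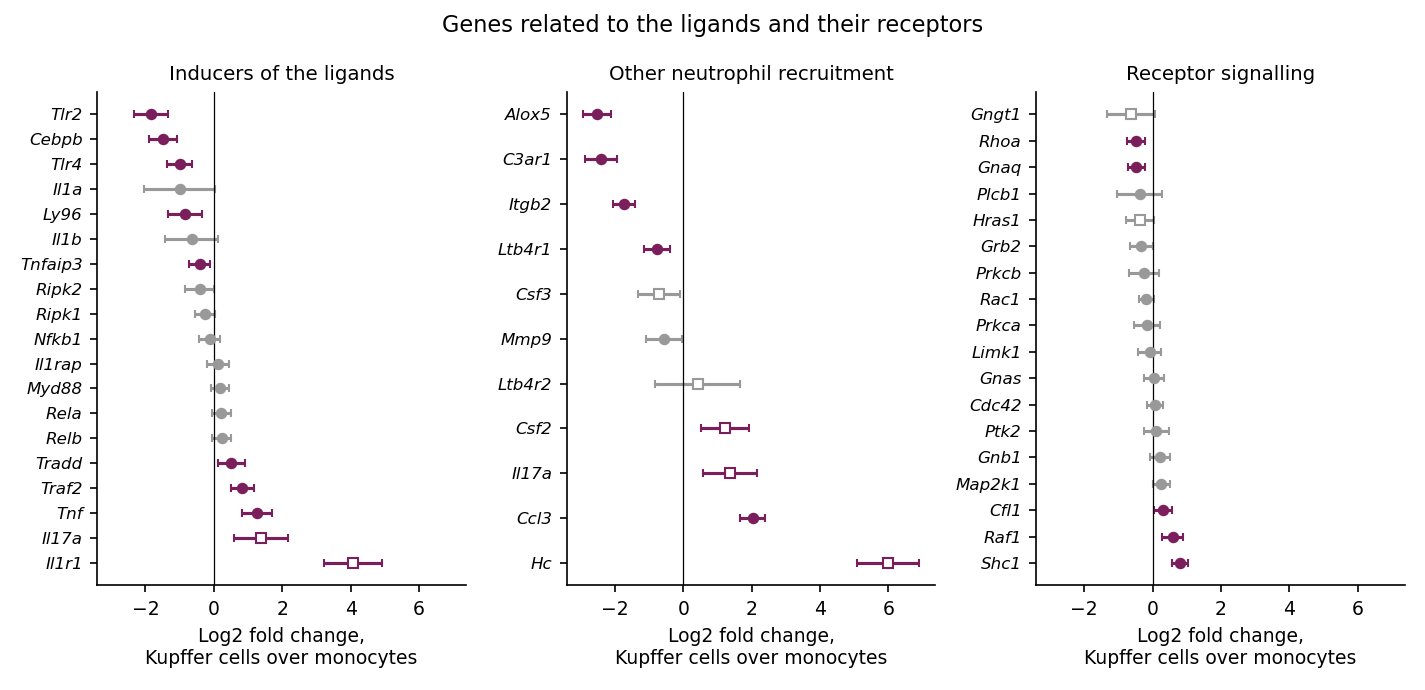
Log2 fold change, KCs over MNCs, with 95% interval for the genes that induce the ligands, other genes of neutrophil recruitment and signalling genes used by chemokine receptors. Purple marks an adjusted p under 0.05 by limma, grey one above it, and an open square a gene at the background in at least 1 sample, for which the estimate rests on listed background values. In the first list 5 genes lie on either side of 0 past the threshold, and in the last most intervals span 0.

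Other attractants of neutrophils, their receptors and the genes with which neutrophils adhere and move made up a list of 11. Of these, 4 were called lower and 4 higher, beside 21.4% and 35.1% of all genes, with a median log2 change of -0.57. Of the measured genes for leukotriene B4, Alox5 and Ltb4r1 fell, and the low-affinity receptor gene Ltb4r2 did not pass the threshold (adjusted p = 0.517, limma). Alox5, the first enzyme of leukotriene synthesis, fell from 257 ± 52.8 to 44.6 ± 11.5 (log2 fold change -2.51, adjusted p = 8.11e-08, limma). Ltb4r1, the gene of the high-affinity leukotriene B4 receptor, fell from 105 ± 17.2 to 61.8 ± 13.0 (-0.77, adjusted p = 0.00249, limma). The other falls were those of the complement receptor gene C3ar1 (-2.40, adjusted p = 5.14e-07, limma) and of Itgb2, the shared beta chain of the leukocyte integrins (-1.73, adjusted p = 4.59e-07, limma). Hc, which encodes complement C5 and is a hepatocyte gene, was at the background in all 6 MNC samples and at 481 to 1975 in KCs (adjusted p = 3.66e-08, limma), and it is one of the 9 hepatocyte genes that rose together. The other rises were those of Ccl3, Csf2 and Il17a. Csf3, the neutrophil growth factor, was at the background in 5 of 6 MNC and 6 of 6 KC samples.

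Most of the signalling genes downstream of chemokine receptors did not pass the threshold, 13 of 18, and the median log2 change was -0.12. Of the 18, 2 were called lower and 3 higher, beside 21.4% and 35.1% of all genes. Rhoa, a small GTPase of cell movement, fell from 2797 ± 122 to 2005 ± 279 (log2 fold change -0.49, adjusted p = 0.00326, limma) and the G protein gene Gnaq from 282 ± 13.9 to 203 ± 27.3 (-0.48, adjusted p = 0.00342, limma). Shc1, an adaptor of receptor signalling, had the largest rise, from 174 ± 12.8 to 303 ± 25.5 (0.80, adjusted p = 3.24e-05, limma). The falls are of the size that the scaling moves: 9 of the 18 genes were called lower after rescaling to the median gene and 5 after quantile normalization, against 2 here.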

How the data were processed

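Expression of inflammation-related genes was measured with the nCounter Mouse Inflammation V2 panel in 6 MNC and 6 KC samples. The authors deposited a signal per gene and sample: counts normalized in nSolver Analysis Software 4.0 by the geometric means of positive controls and housekeeping genes, with the background threshold at the highest negative control. Values below it stayed unmultiplied by the lane factor, which was recovered as the step of which the other values are whole multiples (tolerance 0.02), so no count model was used. The table held no column of another sample, and depth is given with the results. The precision is set by 6 samples per group and, for low genes, by the background. The p-values measure the spread between these pools.

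The 248 genes were fitted together with limma 3.58.1 (R 4.3.3) on log2(value + 1), two-sided, in 2 groups, with Benjamini-Hochberg adjustment over all 248 and a threshold of 0.05, and every adjusted p from limma comes from it. Fold changes are KCs over MNCs on the log2(value + 1) scale, which understates changes of low genes. The ratio was tested over all 924 assignments of 12 samples (smallest two-sided p 0.00216) and correlations over all 720 pairings. Tested on simulated data of 248 genes for this comparison, the fit recovered 40 of 40 changed genes and called 1 of 208 unchanged ones. The changes put in were large and only in genes above the background in all samples. Recovery of small changes, of the size of those of Cxcr2 or Rhoa, was therefore not tested. Calls of the fit for genes at the background, or under a shift of scaling, were not tested in this way either. No pair of samples agreed within counting noise. Python 3.11.15 with numpy 2.4.6, pandas 2.3.3, scipy 1.17.1, matplotlib 3.10.9 and Biopython 1.88 served for the rest.

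The members, the lists of related genes and the markers were chosen with earlier results of these data known. Named are all members and, per related list, the called gene with the largest rise and the 3 with the largest falls, with Tnf, Il1a, Il1b, Nfkb1, Rela, Tnfaip3, Alox5, Ltb4r1, Itgb2, Mmp9 and Csf3, and the 5 genes most like each measured member. Markers with few or no members on the panel were those of platelets (1 of 5, Alox12, sums of 132 to 292 in MNCs and 9.00 to 41.3 in KCs), liver endothelium (1 of 5, Flt1, 9.01 to 27.0 and 52.2 to 151) and B cells (0 of 5). Flt1 was at the background in 5 of 6 MNC samples. Alternatives concerned the pseudocount, low values, scaling, the background, the test, a replicate block and each sample left out.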

Additional observations from a re-analysis of the deposited data

Results flagged for a closer look

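Of 42 groups of 6 samples checked for a sample far from the others, 2 held one, where chance gives about 1 in 20. Cxcr2 in MNC sample 2 was 271 normalized counts against 124 in the next sample, a gap of 0.69 of the range of the group. This sample also had the lowest background, 5, and the only MNC values of Cxcl3, Cxcl5 and Cxcr1 above it. Its Cxcr2 value rests on 241 counted molecules (interval 238 to 308 normalized counts, counting error only). Ltb4r1, the leukotriene B4 receptor gene, was 71.7 in MNC sample 4 against 104 in the next sample, a gap of 0.70 of the range.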

How the results depend on the processing

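Over 23 alternatives the log2 fold change stayed between -5.21 and -4.44 for Cxcl1 (adjusted p at most 4.10e-05, limma) and between -5.08 and -4.64 for Cxcl2 (at most 5.99e-05), and that of Cxcr2, -0.82 to 0.11, never passed the threshold (0.0684 to 1.00). With each sample left out in turn the ranges were -5.01 to -4.44, -4.97 to -4.64 and -0.45 to -4.51e-06. Without MNC sample 2 and KC sample 4 together, chosen after seeing the data, Cxcr2 turned to 0.11 (adjusted p = 0.686, limma). The members called lower, 3, became 3 to 5 with a sample left out (5 without MNC sample 2), 5 after rescaling to the median gene and 5 without those samples together; the additions were Cxcl3 and Cxcl5, at background. With the background multiplied by the lane factor, 3 members were called higher. Genes inducing the ligands called lower went from 5 to 10 after rescaling to the median gene and to 10 after quantile normalization. Receptor signalling genes called lower went from 2 to 9 and 5, and those called higher from 3 to 5 with the multiplied background. Over all genes, 53 lower became 108 after rescaling to the median gene (68 higher), 69 after quantile normalization (63 higher), 86 without MNC sample 2 and 84 without both samples, and 87 higher became 140 with the multiplied background (48 lower). The median change of all genes, 0.05, was -0.21 after rescaling, 0.15 without Gapdh in the scaling and 0.58 with the multiplied background. The Cxcl1 to Cxcl2 ratio ranged from -0.093 (without KC sample 4) to 0.35 with a sample left out, and was -0.052 without KC sample 6. Deviations from the cell type means, over the 160 genes above the background in all samples, correlated between same-numbered samples with r of -0.23 to 0.40. Blood and liver cells of the same mice need not deviate together, so this cannot tell whether the numbers pair them. With the replicate block Cxcl1 had -4.69 (adjusted p = 4.10e-05, limma), Cxcl2 -4.81 (5.99e-05), and 2 members were called lower. The background of the lane limits Cxcl3, Cxcl5 and Cxcr1, measured as upper limits in 10 or 11 of 12 samples. MNC sample 2, the only MNC sample with these genes above it, had the fewest counted molecules of the MNCs, 158730. KC sample 1, the only KC sample with Cxcl3 above it, had the most of the KCs, 140029.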

Other observations

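Of the 8 negative control probes, probe A had 4 to 27 counted molecules over the 6 MNC lanes and 3 to 7 over the 6 KC lanes. It was the highest in 4 of 6 MNC lanes and in 1 of 6 KC lanes. It thereby set the limit below which Cxcl3, Cxcl5 and Cxcr1 lie in most MNC samples. The second-highest negative control was 4 to 19 in MNC lanes and 5 to 8 in KC lanes.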
